A study of Mus musculus with 4 samples.

Results

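The 8 transcription factors at the centre of hepatocyte gene control, Hnf4a, Foxa1, Foxa2, Foxa3, Onecut1, Onecut2, Cebpa and Creb3l3, were followed by gene symbol through 4 RNA sequencing libraries of cultured mouse liver cells. All 8 symbols were found among the 24493 in the deposited table. All 8 passed the filter on low values (at least 1 TPM in at least 2 libraries) among the 12336 genes tested. TPM is a share of the library corrected for transcript length, so levels of different genes in a library can be set side by side.

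Hepatocytes in 3D culture made up the Hep_3D group, and biliary cells that derive from hepatocytes, in 2D culture, made up the Bil_2D group. Both groups had the C57BL/6 strain background and hepatocytes as the cell source, received no treatment, and held 2 libraries each. Each clone gave 1 library per state, 15C7 as replicate 1 and 19H5 as replicate 2. Both states were thus cultured cells from the same pair of clones, and no library of fresh liver or of native bile duct stood beside them. Every Hep_3D library was from 3D culture and every Bil_2D library from 2D culture, so cell state and culture format cannot be told apart. The labels do not say whether the clones came from separate animals, so p-values cover the spread among these 4 cultures only, and part of it may be technical. Sequencing depth was unknown, since TPM does not keep it.

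Hnf4a encodes a nuclear receptor that binds the promoters of a large part of the genes that define hepatocytes. The FOXA proteins are winged-helix pioneer factors that open chromatin in the liver bud and later hold liver enhancers accessible. The ONECUT factors act in liver development in the separation of hepatocytes from bile duct cells and also control metabolic genes. Cebpa encodes a leucine zipper factor of metabolic genes in the adult hepatocyte. Creb3l3 encodes CREBH, a factor of liver and intestine that is held in the endoplasmic reticulum membrane until proteolysis releases it to act on lipid and acute phase genes. These factors bind one another's regulatory regions, which is why they are described as a network.

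The bases before the transcript starts show which of the family's own binding letters stand at each gene. RefSeq start sites on GRCm38.p6, the assembly also called mm10, gave 11 windows of 250 bases for 7 of the 8 genes. They were searched on both strands for the FOXA letters TGTTTAC, the HNF4 letters CAAAGTC, the ONECUT letters ATTGAT or their variant ATCGAT, the C/EBP letters TTGCNNAA, the cAMP response letters TGACGT and the TATA box letters TATAAA. The TATA box was added after the sequences had been seen. No matches overlapped one another. A match is only a stretch of letters, and its absence says only that the letters were not in the window. The 5 sequences below are from the genes whose levels differed most clearly between the states. Where a gene had several starts, a start that held a match is shown. Matches are in capitals, each line runs 5′ to 3′ on the gene's strand, and bases inside annotated exons were left out.
Hnf4a upstream start, chr2:163506607-163506807, plus strand: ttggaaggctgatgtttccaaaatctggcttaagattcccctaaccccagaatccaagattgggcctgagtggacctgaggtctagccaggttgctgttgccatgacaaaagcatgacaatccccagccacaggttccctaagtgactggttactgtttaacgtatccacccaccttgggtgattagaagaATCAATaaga
Foxa2 upstream start, chr2:148046970-148047219, minus strand: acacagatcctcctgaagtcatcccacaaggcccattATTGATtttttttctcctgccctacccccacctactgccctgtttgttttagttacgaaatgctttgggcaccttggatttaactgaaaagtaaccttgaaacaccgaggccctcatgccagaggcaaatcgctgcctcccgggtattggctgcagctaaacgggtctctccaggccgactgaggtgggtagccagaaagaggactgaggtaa
Foxa3 start, chr7:19023540-19023789, minus strand: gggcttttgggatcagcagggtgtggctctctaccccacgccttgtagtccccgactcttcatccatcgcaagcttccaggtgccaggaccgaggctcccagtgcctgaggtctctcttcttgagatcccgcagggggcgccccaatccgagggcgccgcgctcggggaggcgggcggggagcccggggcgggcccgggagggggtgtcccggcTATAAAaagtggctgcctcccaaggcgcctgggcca
Cebpa start, chr7:35119043-35119292, plus strand: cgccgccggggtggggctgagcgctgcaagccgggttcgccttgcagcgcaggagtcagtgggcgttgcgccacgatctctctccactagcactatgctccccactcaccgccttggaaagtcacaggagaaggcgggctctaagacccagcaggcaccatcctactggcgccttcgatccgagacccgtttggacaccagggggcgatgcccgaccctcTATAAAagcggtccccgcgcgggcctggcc
Creb3l3 internal start, chr10:81092658-81092806, minus strand: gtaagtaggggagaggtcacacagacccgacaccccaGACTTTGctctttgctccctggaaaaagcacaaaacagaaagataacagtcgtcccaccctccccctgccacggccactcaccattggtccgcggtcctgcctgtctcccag

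The upstream Hnf4a start held the ONECUT letters ATTGAT on the minus strand, read as ATCAAT above, 59 bases before the start. ATTGAT also stood 213 bases before the upstream start of Foxa2. TATAAA stood 36 bases before the start of Foxa3 and 30 bases before that of Cebpa, both rich in G and C (68.8% and 66.4%, against a median of 52.4% over all windows). The printed bases of the internal start of Creb3l3 lie in an intron of the gene. That start held the HNF4 letters CAAAGTC on the strand opposite the gene's, 178 bases before it. Among windows not printed, Foxa1 held TGTTTAC 141 bases before its start and Onecut1 held TGACGT 140 bases before its start. The third start of Foxa2 held the TATA box letters 208 bases before it, on the strand opposite the gene's. The upstream start of Creb3l3 and the second start of Foxa2, also not printed, held 0 matches. Of all 32851 windows of this length, the ONECUT letters ATTGAT stood in 6.72%, the HNF4 letters in 3.84%, the FOXA letters in 3.17%, the cAMP response letters in 6.47% and the TATA box letters in 12.4%. The ONECUT variant, in 0.728% of all windows, and the C/EBP letters, in 9.56%, were in none of the 11 windows.

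Of the 8 factors, Cebpa, Creb3l3, Foxa3 and Hnf4a rose in Hep_3D and Foxa2 fell, each at an adjusted p under 0.05 in limma on log2(TPM + 1) with Benjamini-Hochberg adjustment over all genes tested. Foxa1, Onecut1 and Onecut2 were not called in this fit, which had no block for clone. With clone as a replicate block Onecut1 was called too (adjusted p = 0.0186 in limma). The 4 factors called higher without the block are to be read against 6.8% of all genes called higher, and the 1 called lower against 51.9% called lower. The 8 factors were chosen with earlier results of these data known, so such counts are a description and no independent test. The summed TPM of the 8 factors was 565 and 478 in the Hep_3D libraries, against 250.3 and 184 in the Bil_2D libraries. RNA was taken from whole cultures, so fewer cells of a type and less RNA per cell cannot be told apart.

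The 50 most abundant genes held 46.6% and 48.4% of the Hep_3D libraries, against 22.4% and 24.8% of the Bil_2D libraries. On the TPM scale, log2 fold changes over all genes tested had a median of -0.73. The fold changes of the 8 factors and the counts of most gene lists are also given after rescaling, in which TPM were divided by median-of-ratios size factors. The median of all genes was then -0.02. After rescaling, Hnf4a, Foxa3, Onecut1, Cebpa and Creb3l3 were called higher and none of the 8 lower, against 11.9% of all genes called higher and 9.54% called lower. On the TPM scale both Hep_3D libraries were above both Bil_2D libraries for 5 of the 8 factors, against 11.1% of all genes, and below both for 1, against 71.9%. After rescaling they were above for 6, against 33.6% of all genes, and below for 1, against 34.7%. With clone as a replicate block on the TPM scale, 5 factors were called higher, against 7.93% of all genes, and 1 lower, against 58.1%. The median log2 fold change of the 8 factors was 1.03 before rescaling and 1.79 after it.

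**Figure D1:**
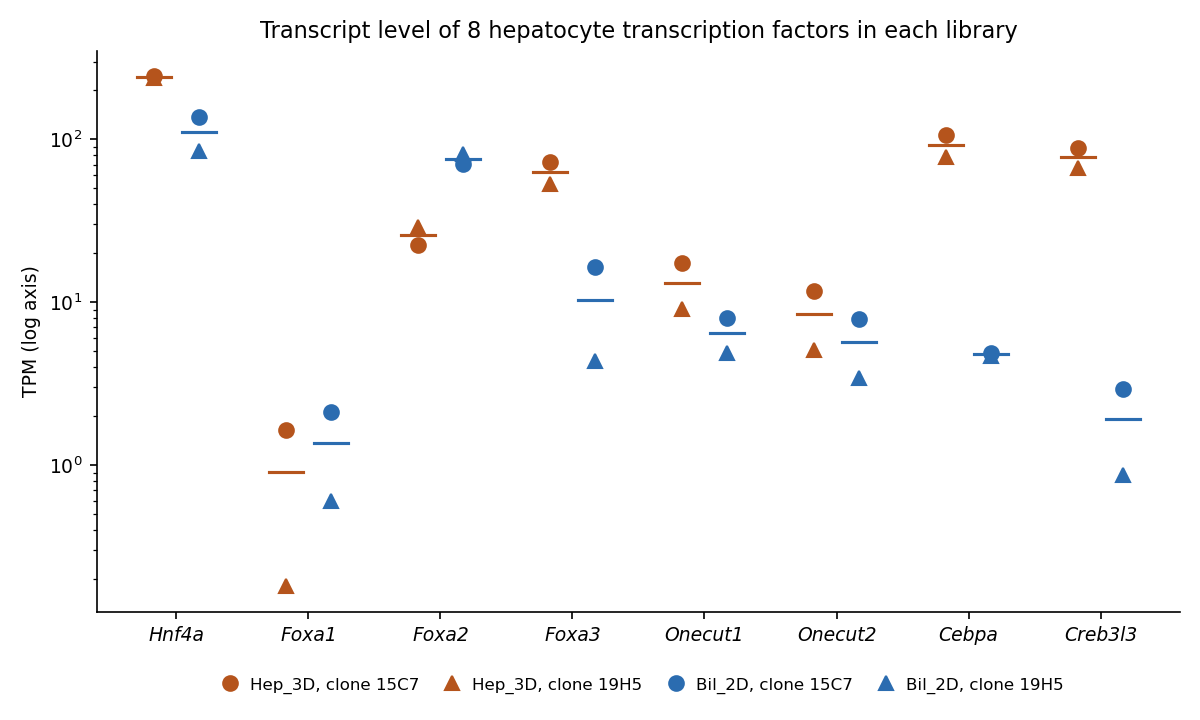
TPM of the 8 factors on a log axis, with a marker for each library by clone and group, Hep_3D left of Bil_2D, and a bar at the group mean. Cebpa, Creb3l3 and Foxa3 show the widest gaps between the groups, Foxa2 stands higher in Bil_2D, and Foxa1 and Onecut2 overlap.

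**Figure D2:**
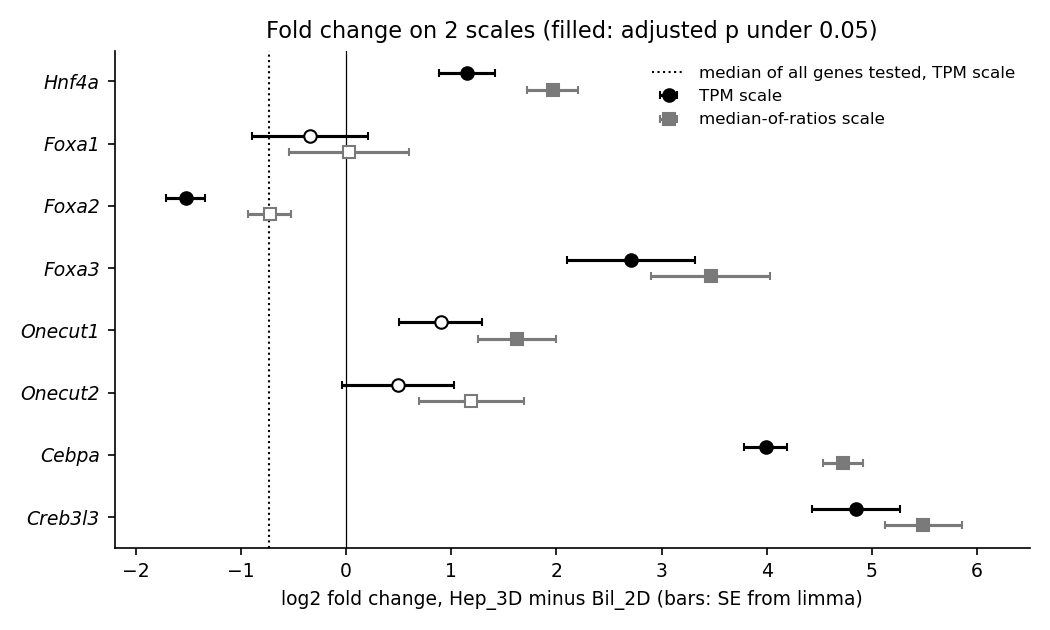
Log2 fold change of each factor, Hep_3D minus Bil_2D, for TPM (circles) and for TPM rescaled by the median-of-ratios scale (squares) with SE from limma. Filled symbols have an adjusted p under 0.05, and the dotted line is the median of all genes tested on the TPM scale, at -0.73.

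In both Hep_3D libraries the order of levels was Hnf4a, Cebpa, Creb3l3, Foxa3, Foxa2, Onecut1, Onecut2 and Foxa1. Along that order the ranges of Cebpa and Creb3l3 overlapped, as did those of Creb3l3 and Foxa3 and those of Onecut1 and Onecut2. The other neighbours did not overlap. In the Bil_2D libraries Hnf4a came first and Foxa2 next. Foxa3, Onecut1, Onecut2 and Cebpa followed with overlapping ranges, and Creb3l3 and Foxa1 came last, also overlapping. The levels of Hnf4a and Foxa2 in Bil_2D were separate, but closely so, at 84.3 and 81.0 TPM in clone 19H5.

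Hnf4a spans chr2:163506811-163572907 on the plus strand. It stood at 244 and 237 TPM in the Hep_3D libraries of clones 15C7 and 19H5, against 137 and 84.3 TPM in the Bil_2D libraries. Both Hep_3D libraries were above both Bil_2D libraries, and the Hep_3D libraries lay close together while the Bil_2D libraries were spread. The log2 fold change was 1.15 ± 0.26 (SE; adjusted p = 0.0233 in limma), and 1.96 after rescaling (adjusted p = 0.0153 in limma). The call was lost on the TPM scale without Hep_3D replicate 1 (adjusted p = 0.0973), without Hep_3D replicate 2 (adjusted p = 0.0969) and without Bil_2D replicate 2 (adjusted p = 0.0523). Hnf4a has a promoter used by adult hepatocytes, at its downstream start, and another at the upstream start shown above that is used in fetal liver, gut and pancreas. A level per gene sums both. The antisense gene Hnf4aos overlaps Hnf4a and was listed at 0.763 and 2.72 TPM in Hep_3D, against 0.278 and 0.502 TPM in Bil_2D. The sources used here do not say whether counting used strand, so reads of the pair cannot be told apart. The part of Hnf4aos in the level of Hnf4a was not tested.

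The FOXA genes went different ways. Foxa3 (chr7:19013283-19023539, minus strand), the member of the family tied to glucose metabolism in the adult liver, stood at 72.6 and 53.3 TPM in Hep_3D, against 16.3 and 4.38 TPM in Bil_2D. Both Hep_3D libraries were above both Bil_2D libraries, and clone 19H5 was the lower clone in each state. Its log2 fold change was 2.71 ± 0.61 (SE; adjusted p = 0.0222 in limma), and 3.47 after rescaling (adjusted p = 0.0261 in limma). The call was lost without Hep_3D replicate 1 (adjusted p = 0.104) and without Hep_3D replicate 2 (adjusted p = 0.0843).

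Foxa2 (chr2:148042877-148046969, minus strand), needed with Foxa1 for the onset of liver development, stood at 22.6 and 29.1 TPM in Hep_3D, against 70.6 and 81.0 TPM in Bil_2D. It was the one factor of the 8 with both Hep_3D libraries below both Bil_2D libraries. Its log2 fold change was -1.52 ± 0.18 (SE; adjusted p = 0.00683 in limma), and it kept its call without each library in turn on that scale. After rescaling the groups still did not overlap, at 29.4 and 39.3 scaled TPM in Hep_3D, against 51.7 and 62.5 scaled TPM in Bil_2D. The log2 fold change there was -0.72 and was not called (adjusted p = 0.0756 in limma). With clone as a replicate block on that scale it was called (adjusted p = 0.0345 in limma). Foxa2 was also called lower after quantile normalization and without the 50 most abundant genes.

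Foxa1 (chr12:57540628-57548029, minus strand) stood at 1.63 and 0.180 TPM in Hep_3D, against 2.11 and 0.604 TPM in Bil_2D. It passed the filter on low values through the 15C7 libraries, 1 in each state, and the groups overlapped. Its log2 fold change was -0.34, with a 95% confidence interval from -1.84 to 1.16 (adjusted p = 0.619 in limma), and the sign turned after rescaling, at 0.029.

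Onecut1 (chr9:74861921-74889648, plus strand), also called HNF6, stood at 17.3 and 9.03 TPM in Hep_3D, against 8.04 and 4.85 TPM in Bil_2D. Both Hep_3D libraries were above both Bil_2D libraries, but Hep_3D of clone 19H5 was little above Bil_2D of clone 15C7. The log2 fold change was 0.90, with an interval from -0.18 to 1.98, and was not called (adjusted p = 0.116 in limma). With clone as a replicate block it was called (adjusted p = 0.0186 in limma), with Hep_3D over Bil_2D ratios of 2.15 in clone 15C7 and 1.86 in clone 19H5. After rescaling the log2 fold change was 1.62 (adjusted p = 0.0495 in limma).

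Onecut2 (chr18:64340032-64398488), which overlaps Onecut1 in function in the developing liver, stood at 11.7 and 5.11 TPM in Hep_3D, against 7.92 and 3.401 TPM in Bil_2D. The groups overlapped, with the 15C7 library above the 19H5 library in each state. Its log2 fold change was 0.49, with an interval from -0.94 to 1.92 (adjusted p = 0.456 in limma). After rescaling it was 1.19, not called without the block (adjusted p = 0.164 in limma) and called with clone as the replicate block (adjusted p = 0.0273 in limma). The ratios within clones were 1.48 in 15C7 and 1.502 in 19H5.

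Cebpa (chr7:35119293-35121928, plus strand) stood at 106 and 77.4 TPM in Hep_3D, against 4.91 and 4.65 TPM in Bil_2D. The lower Hep_3D library was far above both Bil_2D libraries, and the Bil_2D libraries were nearly equal. The mean in Hep_3D was 19.2 times that in Bil_2D, and the log2 fold change was 3.99 ± 0.21 (SE; adjusted p = 0.00312 in limma), or 4.72 after rescaling (adjusted p = 0.00183 in limma). It was called in 19 of 19 alternatives.

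Creb3l3 (chr10:81084329-81098872, minus strand) had the largest fold change of the 8 factors on both scales. It stood at 89.0 and 66.8 TPM in Hep_3D, against 2.94 and 0.873 TPM in Bil_2D. Both Hep_3D libraries were far above both Bil_2D libraries, and the Bil_2D library of clone 19H5 was under the 1 TPM of the filter. The mean in Hep_3D was 40.8 times that in Bil_2D, and the log2 fold change was 4.85 ± 0.42 (SE; adjusted p = 0.00513 in limma), or 5.49 after rescaling (adjusted p = 0.00449 in limma). It too was called in 19 of 19 alternatives.

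Because a share within a family or a ratio within a library does not depend on the scaling, the make-up of each family was compared next. The FOXA family as a whole summed to 96.9 and 82.6 TPM in Hep_3D, against 89.1 and 86.0 TPM in Bil_2D, so the sums overlapped while the leading member differed. Foxa3 made up 75.0% and 64.5% of the family in Hep_3D, against 18.3% and 5.10% in Bil_2D. Foxa2 made up 23.3% and 35.3% in Hep_3D, against 79.3% and 94.2% in Bil_2D. The mean differences were 58.0 percentage points for Foxa3 and -57.4 for Foxa2. Foxa1 made up at most 2.37% of the family in any library, so these differences nearly mirror each other and are not separate results. With 2 libraries against 2 the exact two-sided permutation test cannot give a p below 0.333, which is the value for each share whose groups did not overlap. The ratio of Foxa3 to Foxa2 was 3.21 and 1.83 in Hep_3D, against 0.231 and 0.0541 in Bil_2D, so it lay above 1 in both Hep_3D libraries and below 1 in both Bil_2D libraries.

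The C/EBP genes Cebpa, Cebpb, Cebpd and Cebpg summed to 306 and 295 TPM in Hep_3D, against 345 and 307 TPM in Bil_2D. Cebpa made up 34.7% and 26.2% of that sum in Hep_3D, against 1.42% and 1.51% in Bil_2D (difference 29.0 points, exact permutation p = 0.333). Cebpb, which acts in the acute phase and in regenerating liver, was the most abundant of them in all 4 libraries, at 134 and 153 TPM in Hep_3D, against 295 and 266 TPM in Bil_2D. It fell on the TPM scale (log2 fold change -0.96, adjusted p = 0.00877 in limma), and after rescaling was at -0.14 (adjusted p = 0.51 in limma). Cebpg, a partner of the other C/EBP proteins, rose on both scales, with log2 fold changes of 0.59 and 1.37 (adjusted p = 0.024 and 0.0102 in limma). Cebpd had log2 fold changes of 0.69 and 1.48 (adjusted p = 0.0613 and 0.0197 in limma), so of these fits only that after rescaling called it. The ratio of Cebpa to Cebpb was 0.790 and 0.506 in Hep_3D, against 0.0166 and 0.0175 in Bil_2D.

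Creb3l3 made up 54.0% and 50.8% of the summed TPM of the CREB3 family in Hep_3D, against 2.22% and 0.859% in Bil_2D (difference 50.9 points, exact permutation p = 0.333). Its relatives with broad expression were not called higher on the TPM scale. Creb3 stood at 46.4 and 41.2 TPM in Hep_3D, against 85.7 and 59.2 TPM in Bil_2D (log2 fold change -0.69, adjusted p = 0.0545 in limma). Creb3l2 stood at 27.9 and 20.7 TPM in Hep_3D, against 40.5 and 40.1 TPM in Bil_2D (log2 fold change -0.72, adjusted p = 0.0329 in limma). After rescaling these were at 0.11 and 0.07, and neither was called. The ratio of Creb3l3 to Creb3 was above 1 in Hep_3D (1.92 and 1.62) and below 1 in Bil_2D (0.0344 and 0.0148).

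The ONECUT family had no such change of leader. Onecut1 made up 58.7% and 62.5% in Hep_3D, against 49.2% and 56.4% in Bil_2D, and the ratio of Onecut1 to Onecut2 was 1.48 and 1.77 in Hep_3D, against 1.01 and 1.42 in Bil_2D. Onecut3 stayed under 0.47 TPM in all 4 libraries. Hnf4g, the close relative of Hnf4a known from gut and kidney, was at or below 0.0615 TPM in all 4 libraries, so Hnf4a supplied nearly the whole of its family.

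**Figure D3:**
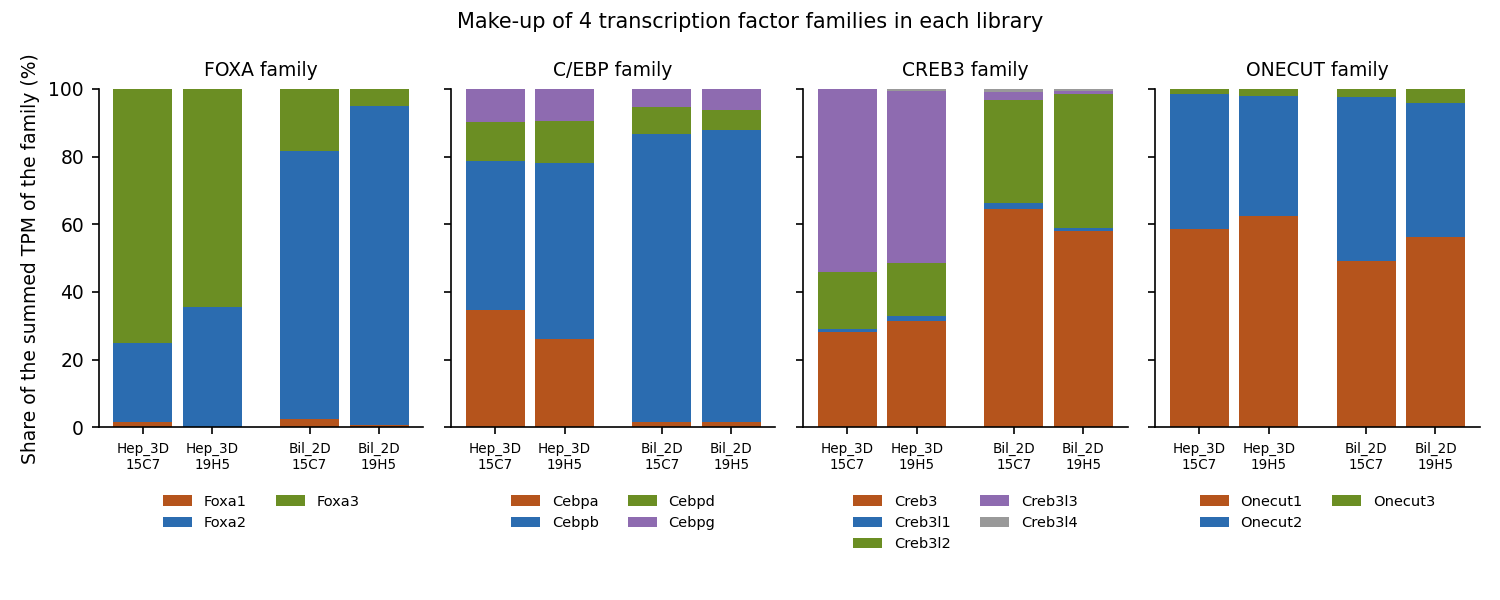
Share of the summed TPM of each family held by each gene, in percent, as stacked bars for the 4 libraries, Hep_3D left of Bil_2D. Foxa3 replaces Foxa2 as the largest part of the FOXA bars in Hep_3D, Cebpa and Creb3l3 are broad in Hep_3D and thin in Bil_2D, and the ONECUT bars differ less.

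The position of each factor within a library was taken as its percentile, which depends on the genes ranked. Among genes with at least 1 TPM, Hnf4a lay at percentiles 96.4 and 96.1 in Hep_3D, against 90.7 and 84.99 in Bil_2D. It thus stayed in the upper part of the range in both states. Cebpa lay at 92.1 and 88.7 in Hep_3D, against 20.0 and 18.8 in Bil_2D. Creb3l3 lay at 90.5 and 87.2 in Hep_3D, against 12.7 in Bil_2D of clone 15C7 and below the ranked genes in that of 19H5. Among all genes above 0 TPM the percentiles were 94.3 and 92.1 in Hep_3D, against 42.1 and 41.9 in Bil_2D, for Cebpa. For Creb3l3 they were 93.2 and 91.0 in Hep_3D, against 36.8 and 27.5 in Bil_2D. With either set of ranked genes, both factors were in the upper part of the range in Hep_3D and lower in Bil_2D. Foxa3 lay at 88.4 and 84.1 in Hep_3D, against 46.0 and 17.9 in Bil_2D, and Foxa2 at 67.7 and 72.9 in Hep_3D, against 82.1 and 84.4 in Bil_2D.

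Among a panel of 93 listed transcription factors of liver, of bile duct and of the same families, Hnf4a ranked 3 in both Hep_3D libraries, behind Xbp1 and Atf5, factors of the secretory and stress responses. In Bil_2D it ranked 8 and 15, where Id2, Id1 and Id3, inhibitors of helix-loop-helix factors, led the panel. Foxa2 ranked 33 and 28 in Hep_3D, against 19 and 16 in Bil_2D. Cebpa ranked 7 and 9 in Hep_3D, against 69 and 61 in Bil_2D, and Creb3l3 ranked 10 and 11 in Hep_3D, against 71 and 76 in Bil_2D.

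**Figure D4:**
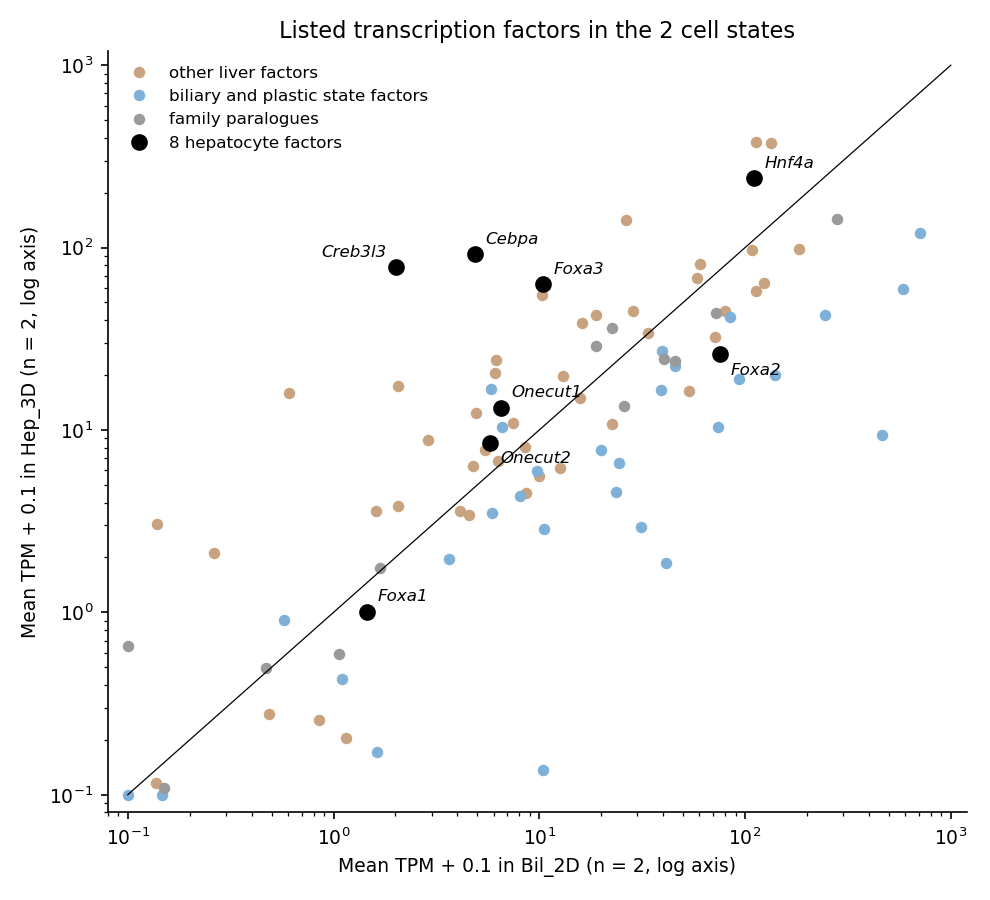
Mean TPM + 0.1 of each listed transcription factor in Hep_3D (vertical) and Bil_2D (horizontal), both on log axes with n = 2 libraries, and the line of equal values. Of the 8 named factors, Creb3l3, Cebpa and Foxa3 lie farthest above the line and Foxa2 lies below it.

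Likeness of pattern was measured as the root mean square difference of log2(TPM + 1) over the 4 libraries after centring each gene, so a smaller value is a closer pattern. Among 80 candidate factors the nearest to Hnf4a was the oxysterol receptor Nr1h3 (0.0857), then the leucine zipper factor Tef (0.116). Foxa2 was near Tead1 (0.189), a DNA-binding partner of YAP, at 6.35 and 6.57 TPM in Hep_3D, against 25.0 and 23.6 TPM in Bil_2D. A gene near Foxa2 by this measure has to be higher in Bil_2D, as Foxa2 was, so that direction is not a separate result. Both Hep_3D libraries were below both Bil_2D libraries for 71.9% of all genes on the TPM scale. Foxa3 was nearest to Rxra (0.261), the partner receptor of many nuclear receptors, then Prox1 (0.460), a homeobox factor of hepatoblasts.

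Onecut1 was nearest to Rora (0.190) and then to Onecut2 (0.255), and Onecut2 was nearest to Onecut1 (0.255) and then to Thrb (0.395), the thyroid hormone receptor. Foxa1 was nearest to Zeb1 (0.345) and Onecut2 (0.420). Cebpa was nearest to Nr5a2 (0.379), a receptor of bile acid and cholesterol genes, then Creb3l3 (0.558). Creb3l3 was nearest to Cebpa (0.558), then Nr5a2 (0.844). Over all other genes tested the nearest were Kank1 to Hnf4a (0.0384), Arhgef19 to Foxa1 (0.0122), Ccdc92 to Foxa2 (0.0131) and Ttc39c to Foxa3 (0.107). They were Eci2 to Onecut1 (0.0231), Capg to Onecut2 (0.0767), Lrrc3 to Cebpa (0.102) and Itih1, which encodes a heavy chain of a plasma protease inhibitor, to Creb3l3 (0.192). With 4 libraries and many candidates such nearness is a description.

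On the TPM scale, 7 of the 8 factors were lower in 19H5 than in 15C7 in both states, against 40% of all genes tested. The exception was Foxa2. After rescaling Hnf4a was an exception too, at 320 scaled TPM in Hep_3D of 19H5 against 317 in Hep_3D of 15C7. The log2 differences on the TPM scale, 19H5 minus 15C7 with cell state in the model, were -1.06 for Foxa1, -1.06 for Foxa3, -1.04 for Onecut2, -0.75 for Onecut1, -0.74 for Creb3l3, -0.37 for Hnf4a, -0.26 for Cebpa and 0.27 for Foxa2. The adjusted p in limma ran from 0.262 to 0.540, and 0 of the 8 factors were called. The fit had 1 residual degree of freedom, and limma called 0 of the 12336 genes (0% of them). At an unadjusted p under 0.05, limma gave 4 of the factors (Foxa1, Onecut1, Onecut2 and Creb3l3), against 13% of all genes. Onecut2 was 2.30 times as high in 15C7 as in 19H5 in Hep_3D and 2.33 times in Bil_2D, so its clone ratio was about the same in each state. On the TPM scale that ratio was larger than the one between states, and after rescaling the order turned, with log2 differences of -0.98 between clones and 1.19 between states.

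Known target genes of each factor were counted from lists drawn from general knowledge. The lists were chosen with earlier results of these data known, so the counts are a description and no independent test. Counts are to be read against 6.8% of all genes called higher and 51.9% called lower on the TPM scale, and 11.9% and 9.54% after rescaling. The lists share genes, with 15 of the 68 distinct genes in more than 1 list, and many are also hepatocyte markers. Of the Hnf4a target genes 27 of 29 were tested, and 21 rose and 0 fell, with a median log2 fold change of 4.71 against -0.73 over all genes (22 and 0 after rescaling, median 5.19). The 3 with the largest increase were Apoa2, a lipoprotein of high density particles, Cyp2c29, a cytochrome P450, and Apoa1. Apoa2 stood at 5289 and 5245 TPM in Hep_3D, against 9.97 and 10.2 TPM in Bil_2D (log2 fold change 8.89, adjusted p = 0.000406 in limma). Hnf4a itself differed by far less than these targets.

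Of the FOXA targets 15 of 17 were tested, and 11 rose and 0 fell (median 5.62 on the TPM scale and 6.28 after rescaling, with the same counts). Cyp2c29, Apoa1 and Alb led. Alb, which encodes serum albumin, stood at 15033 and 11216 TPM in Hep_3D, against 140 and 18.4 TPM in Bil_2D (log2 fold change 7.96, adjusted p = 0.00718 in limma). These genes are not assigned to a single FOXA protein, so the counts are for the family.

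Of the Cebpa targets 17 of 19 were tested, and 13 rose and 0 fell (median 5.60 on the TPM scale and 6.42 after rescaling, with the same counts). The urea cycle enzyme gene Arg1 stood at 279 and 258 TPM in Hep_3D, against 0.199 and 0.121 TPM in Bil_2D (log2 fold change 7.86, adjusted p = 0.00106 in limma). Alb and the cytochrome P450 gene Cyp2d10 were the other leaders. Hamp, the gene of the iron hormone hepcidin, is in this list and in that of Creb3l3 and stood at 114 and 0.448 TPM in Hep_3D, against 1390 and 13.9 TPM in Bil_2D. It was lower in Hep_3D within each clone but the groups overlapped, and it was called with clone as the replicate block (adjusted p = 0.00776 in limma) and not without it (adjusted p = 0.375).

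Of the Creb3l3 targets 16 of 17 were tested, and 9 rose and 1 fell (11 and 0 after rescaling), with medians of 1.66 and 2.37. Apoa1, Apoa4 and Apcs, which encodes serum amyloid P component, led. Apoa4 stood at 162 and 171 TPM in Hep_3D, against 0.688 and 0.157 TPM in Bil_2D (log2 fold change 6.90, adjusted p = 0.00176 in limma). The fasting hormone gene Fgf21 stood at 20.9 and 28.6 TPM in Hep_3D, against 0.826 TPM and a listing at 0 in Bil_2D (adjusted p = 0.00517 in limma). Cpt1a, the mitochondrial importer of fatty acids, was the gene that fell, with a log2 fold change of -0.76 (adjusted p = 0.0154 in limma). That is near the median of all genes. Its call was lost without each library in turn, and after rescaling it was at 0.05. The number called higher was 6 without Hep_3D replicate 2.

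The ONECUT targets were fewer, with 10 of 12 tested, 4 higher and 2 lower (5 and 1 after rescaling), and medians of 1.75 and 2.31. Cyp2c29 and the glucose-6-phosphatase gene G6pc were among the leaders. G6pc stood at 34.5 and 25.3 TPM in Hep_3D, against 0.362 TPM and a listing at 0 in Bil_2D. Foxa2 itself was among those that fell.

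**Figure D5:**
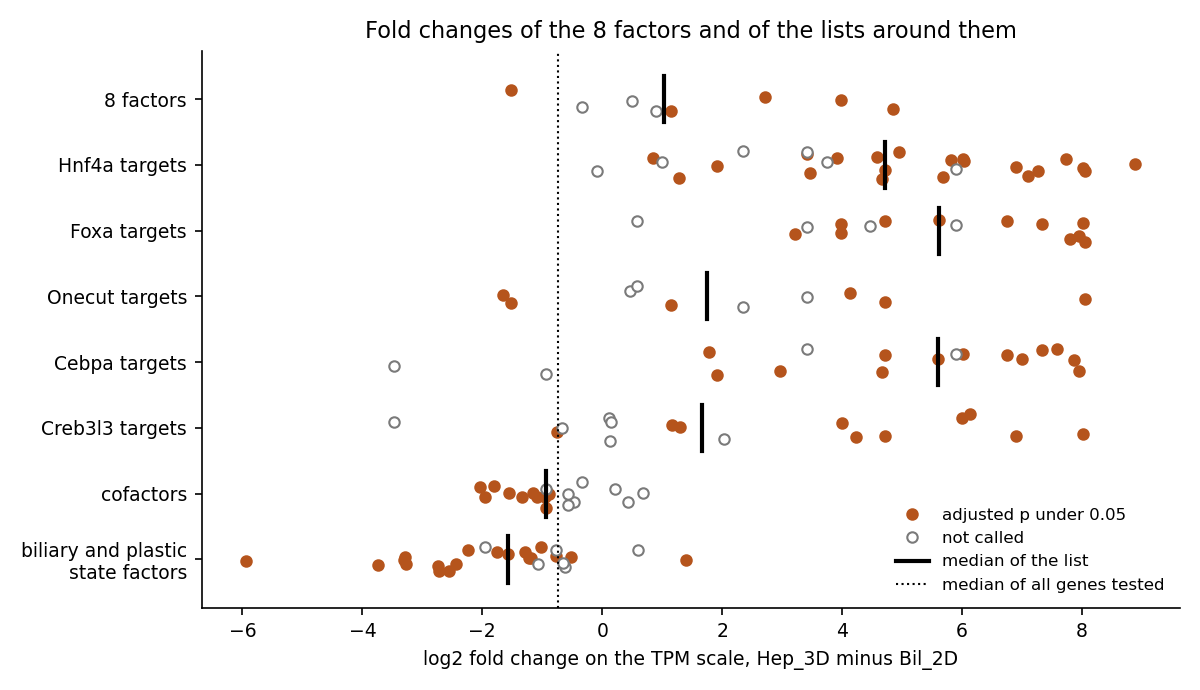
Log2 fold change on the TPM scale, Hep_3D minus Bil_2D, of each tested gene in 8 lists, filled where the adjusted p is under 0.05, with a bar at the median of each list and a dotted line at the median of all genes tested. The targets of Hnf4a, Foxa and Cebpa lie mostly to the right, and the cofactors and the biliary and plastic state factors mostly to the left.

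CREBH needs proteolysis in the Golgi to become active, so the genes of that machinery were read beside Creb3l3. Of 10 tested, 3 rose and 3 fell on the TPM scale, where 6.8% of all genes rose and 51.9% fell. After rescaling 4 rose and 0 fell, against 11.9% and 9.54% of all genes. The genes that rose were Insig1 and Insig2, which retain sterol-sensing partners in the endoplasmic reticulum, and Hspa5, its main chaperone. Insig1 had a log2 fold change of 1.20 (adjusted p = 0.0137 in limma). The genes that fell were Mbtps1 and Mbtps2, the proteases themselves, and Sec24c, a coat subunit of transport vesicles. Mbtps2 stood at 5.70 and 5.08 TPM in Hep_3D, against 16.5 and 14.4 TPM in Bil_2D (log2 fold change -1.37, adjusted p = 0.00737 in limma), and after rescaling was at -0.63 (adjusted p = 0.0613 in limma). These counts were fragile. Without Hep_3D replicate 1, Hep_3D replicate 2 and Bil_2D replicate 1 in turn, 0 rose, and 1 rose without Bil_2D replicate 2. The number that fell was 2, 1, 0 and 1 without the same libraries.

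Of 19 tested cofactors and modifiers of these factors, 0 rose and 11 fell on the TPM scale (median -0.94), a share near the 51.9% of all genes that fell. After rescaling 1 rose and 4 fell (median -0.19), against 11.9% and 9.54% of all genes. Src, a kinase known to phosphorylate human HNF4A, stood at 19.0 and 17.8 TPM in Hep_3D, against 80.8 and 75.9 TPM in Bil_2D, for log2 fold changes of -2.03 before and -1.24 after rescaling (adjusted p = 0.00382 and 0.0100 in limma). Prmt1, an arginine methyltransferase, had log2 fold changes of -1.96 and -1.15, and Smarca4, the ATPase of a chromatin remodeller, of -1.80 and -0.998, all called. Trib1, which promotes degradation of the C/EBPA protein and was the fourth called on both scales, had -1.55 and -0.76. Leaving out Hep_3D replicate 2 left 6 that fell on the TPM scale, leaving out Bil_2D replicate 1 left 4 and leaving out Bil_2D replicate 2 left 7.

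Of 40 other liver transcription factors tested, 16 rose and 8 fell (24 and 1 after rescaling), with medians of 0.47 and 1.23. Of all genes, 6.8% rose and 51.9% fell on the TPM scale, and 11.9% and 9.54% after rescaling. Nr5a2, Ppara, the receptor of fatty acid oxidation genes, and Rxra led. Nr5a2 stood at 22.1 and 9.75 TPM in Hep_3D, against 0.557 and 0.458 TPM in Bil_2D (log2 fold change 3.39, adjusted p = 0.00707 in limma). Gata6 and Esrra were among those that fell, and neither was called after rescaling. Those that rose numbered 7 without Hep_3D replicate 1, 9 without Hep_3D replicate 2 and 8 without Bil_2D replicate 2. Leaving out Hep_3D replicate 2 left 5 that fell, and leaving out either Bil_2D library left 1.

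Of 25 transcription factors of biliary and plastic states tested, 1 rose and 18 fell (2 and 11 after rescaling), with medians of -1.58 and -0.95. The falls stand beside 51.9% of all genes on the TPM scale and 9.54% after rescaling, and the rises beside 6.8% and 11.9%. Id3, Fosl1, a subunit of AP-1, and Sox17, a factor of the fetal biliary tree, fell most. Sox17 stood at 0.0729 TPM and a listing at 0 in Hep_3D, against 15.3 and 5.38 TPM in Bil_2D (log2 fold change -3.30, adjusted p = 0.00948 in limma). The gene that rose was Foxq1, with a log2 fold change of 1.39 (adjusted p = 0.013 in limma). Without Hep_3D replicate 1, Bil_2D replicate 1 and Bil_2D replicate 2 in turn, 0 rose. Leaving out Bil_2D replicate 1 left 10 that fell, and leaving out Hep_3D replicate 2 or Bil_2D replicate 2 left 12 in each case.

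The labelled states were checked against defining markers. Of 14 hepatocyte markers tested, 11 rose and 0 fell on either scale. Of all genes, 6.8% rose and 51.9% fell on the TPM scale, against 11.9% and 9.54% after rescaling. The summed TPM of the 15 markers in the table was 80765 and 72226 in Hep_3D, against 2385 and 499 in Bil_2D. Pck1, the gene of a rate-limiting enzyme of glucose production, was at or below 0.617 TPM in all 4 libraries and was not tested. Cyp2e1, a pericentral cytochrome P450, was at 1.96 and 3.53 TPM in Hep_3D, against 2.04 and 2.55 TPM in Bil_2D, so both of these genes of the mature hepatocyte were low in each state.

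Of 15 cholangiocyte markers tested, 2 rose and 9 fell (2 and 5 after rescaling). The share that fell was near the 51.9% of all genes on the TPM scale, while 9.54% of all genes fell after rescaling. The rises stand beside 6.8% of all genes on the TPM scale and 11.9% after rescaling. The keratin gene Krt19 stood at 1.12 and 15.9 TPM in Hep_3D, against 752 and 1615 TPM in Bil_2D (log2 fold change -7.53, adjusted p = 0.00873 in limma). Spp1 and Ggt1 were the 2 that rose, of which Spp1 lost its call with clone as the replicate block (adjusted p = 0.0611 in limma), and Epcam, Cftr and Sctr were at or below 2.59 TPM in all 4 libraries. Leaving out Bil_2D replicate 1 left 6 that fell, and leaving out Bil_2D replicate 2 left 5. Those that rose numbered 1 without Hep_3D replicate 1, Bil_2D replicate 1 or Bil_2D replicate 2, and 0 without Hep_3D replicate 2.

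Markers of other cells were low with some exceptions. The summed TPM of 9 endothelial markers was at most 0.437 in any library. That of 9 leukocyte markers was 3.15 and 3.59 in Hep_3D, against 7.65 and 14.2 in Bil_2D, where Cd68 was the largest part (4.498 and 11.7 TPM). That of 12 fibroblast markers was 182 and 4.06 in Hep_3D, against 5.60 and 1.36 in Bil_2D, of which Dcn alone gave 178 TPM in Hep_3D replicate 1, and 9 of the 12 were under 1 TPM in all 4 libraries. That of 12 pancreas and gut markers was 75.6 and 849 in Hep_3D, against 283 and 71.6 in Bil_2D, with Tff3 at 810 TPM in Hep_3D replicate 2, and Pdx1, Ptf1a, Cpa1, Ins2 and Gcg at 0 in all 4. Vil1, at 73.5 and 35.6 TPM in Hep_3D, against 265 and 55.9 TPM in Bil_2D, was not called. Cdx2 stood at 0.117 and 3.50 TPM in Hep_3D, against 15.7 and 11.3 TPM in Bil_2D. Cdx2 and Lgr5 fell on the TPM scale (adjusted p = 0.0353 and 0.0119 in limma), 2 of 4 tested, against 51.9% of all genes. After rescaling only Lgr5 did (adjusted p = 0.0409 in limma). Dcn was high in the Hep_3D library of 15C7 and Tff3 in that of 19H5. The part of these cells in the fold changes of the 8 factors was not tested.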

How the data were processed

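RNA was measured by sequencing in 4 libraries, extracted with a Qiagen RNeasy kit per the labels' protocols. The authors deposited TPM per gene symbol. Salmon, DESeq2 and the mm10 build are named without versions or roles per the submitters' processing notes. The transcript annotation is not given in the sources used here. TPM hold no whole reads, which bars count models and counting errors.

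Groups came from the sample titles and clones from the clone numbers. Same-numbered libraries are the same clone, so the replicate block is a true pairing. Across genes, the deviations from group means of the libraries of a clone correlated at 0.414. Hep_3D and Bil_2D were compared in limma 3.58.1 (R 4.3.3; lmFit, then eBayes with a trend) on log2(TPM + 1), which understates the change of low genes. Residual degrees of freedom were 2 and prior degrees 2.29, and genes were called at an adjusted p under 0.05. Clones were compared with cell state as a term. Rescaling divides TPM by median-of-ratios size factors, taken from genes at 1 TPM or more in each of the 4 libraries, which set the groups 0.82 log2 units apart. Alternatives were this rescaling, quantile normalization, removal of the 50 most abundant genes, pseudocounts of 0.1 and 5, a filter of 5 TPM or none, other variance models, the replicate block and leaving out each library. Shares, ratios and ranks were computed with pandas 2.3.3. The fit was tested on simulated data with independent libraries and few changed genes. Those data held neither the clone pairing nor the broad shift seen here, so the test does not cover them.

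The members and lists were chosen with earlier results of these data known, so their counts beside those of all genes are no independent test. Named genes are the 8 factors, their families, the marker lists, the 3 highest and 3 lowest called genes of each other list, and the nearest genes by pattern. Hamp, Fgf21, Trib1 and the factors leading the panel were named after their values were seen. Some genes that this rule names, and a binding motif that was searched, are not reported here.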

Additional observations from a re-analysis of the deposited data

How the results depend on the processing

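Cebpa and Creb3l3 were called higher in 19 of 19 alternatives. After rescaling by median-of-ratios size factors without a replicate block, 0 of the 8 factors were called lower. With clone as a replicate block on that scale Foxa2 was called lower (adjusted p = 0.0345 in limma). It was also called lower after quantile normalization (log2 fold change -0.84, adjusted p = 0.045 in limma). Without the 50 most abundant genes the log2 fold change of Foxa2 was -0.99 (adjusted p = 0.0367 in limma). The factors called higher ranged from 2 to 4 with each library left out in turn on either scale, and the lone library of a group was then taken to vary like the other group. With clone as a replicate block 5 factors were called higher and 1 lower, against 7.93% and 58.1% of all genes. The block added the call of Onecut1 (adjusted p = 0.0186 in limma) and on the TPM scale changed no other call among the 8. After rescaling, Hnf4a was called in 1 of 4 fits with a library left out, Foxa3 in 1 and Onecut1 in 0. Over all genes tested, the number called higher and lower was 1465 and 1177 after rescaling, 1356 and 1744 after quantile normalization, and 1744 and 1449 after rescaling with the block. The number lower was 2215 without the 50 most abundant genes. With each library left out in turn the number higher was 434 to 595 and the number lower 2193 to 3950 on the TPM scale, and after rescaling the numbers higher and lower were 515 and 303 (Hep_3D replicate 1 left out), 447 and 166 (Hep_3D replicate 2), 288 and 52 (Bil_2D replicate 1) and 168 and 20 (Bil_2D replicate 2). Within the 2 most abundant genes of each family alone, the share of Cebpa differed by 37.2 points and that of Creb3l3 by 61.4. The log2 fold change of Foxa1, never called, turned to 0.029 after rescaling with or without the block. On the TPM scale it ran from -0.92 to 0.24 with each library left out, being 0.24 without Hep_3D replicate 2 and 0.14 without Bil_2D replicate 1. It turned to 0.69 and 0.43 without the same libraries after rescaling. The difference in its family share ran from -1.42 to 0.251 points, being 0.150 and 0.251 without those libraries. The log2 fold change of Onecut2 ran from -0.037 to 1.02, being below 0 without Hep_3D replicate 1 and without Bil_2D replicate 2 (-0.017). The cause was not tested. Depth was unknown, so how far it limits low values such as Foxa1 is unknown too.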

Other observations

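Within 10000 bp of the 8 factors, 5 other genes were tested, and on the TPM scale 0 rose and 3 fell. Of all genes, 6.8% rose and 51.9% fell on that scale. Sympk, a scaffold gene of messenger RNA 3′ end processing that lies 837 bp from Foxa3, stood at 32.9 and 31.2 TPM in Hep_3D, against 68.7 and 71.0 TPM in Bil_2D. Its log2 fold change was -1.10 (adjusted p = 0.00621 in limma), and -0.30 after rescaling (adjusted p = 0.162 in limma). Thop1, a peptidase gene 1968 bp from Creb3l3, stood at 17.7 and 14.1 TPM in Hep_3D, against 42.9 and 71.9 TPM in Bil_2D. Its log2 fold change was -1.75 (adjusted p = 0.0118 in limma), and -0.97 after rescaling (adjusted p = 0.10 in limma). R3hdml, 4189 bp from Hnf4a, stood at 1.33 and 0.238 TPM in Hep_3D, against 7.66 and 4.75 TPM in Bil_2D (log2 fold change -2.05, adjusted p = 0.0175 in limma). After rescaling it was at -1.55 and was not called (adjusted p = 0.0769 in limma). Irf2bp1 and Map2k2 were not called on the TPM scale (adjusted p = 0.295 and 0.0713 in limma) or after rescaling (adjusted p = 0.0572 and 0.126 in limma). Falls of this kind are common on the TPM scale, where 51.9% of all genes were called lower.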
